A study of Mus musculus with 10 samples.

Results

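The major urinary protein genes examined here were the 9 members Mup1, Mup2, Mup3, Mup7, Mup10, Mup11, Mup17, Mup20 and Mup21. They were chosen by gene name from 19271 genes with values in the liver of mice carrying the S400D allele of HtrA2/Omi, a serine protease of mitochondria encoded by Htra2. The choice was made with earlier results of these data known. RNA of whole liver was sequenced from C57BL6/N mice aged 2 months. The 9 males were of 3 genotypes with 3 animals each: WT/WT (wild-type), S400D/WT (heterozygous) and S400D/S400D (homozygous). The only female was S400D/S400D, so the allele cannot be told apart from sex in her values and she entered no test. The labels name no litter, breeding scheme or time of collection, and a p-value here reflects the spread among these animals alone. In bulk liver, fewer hepatocytes and less RNA per hepatocyte cannot be told apart.

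Major urinary proteins are small secreted lipocalins with a barrel fold that holds hydrophobic molecules. They are made in the liver, pass through the kidney into urine, bind volatile pheromones there and serve as scent signals between mice. In mouse liver their transcription is known to be higher in males and to depend on pulses of growth hormone acting through the transcription factor STAT5, with glucocorticoid and thyroid hormone also involved.

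All 9 genes lie on chromosome 4 (GRCm38.p6) between 60066469 and 62150841, from Mup7 to Mup21. They are part of a cluster with 13 further Mup genes of the table, which spans 59956804 to 62150841. The coding sequences of Mup1, Mup2, Mup7, Mup10, Mup11 and Mup17, taken from GENCODE M21 transcripts (GRCm38), were 98.3% to 99.4% identical over their 15 pairs, which is 3 to 9 differing bases. The other 3 members were 83.1% to 91.4% identical to these 6 copies, and Mup3 and Mup21 were 94.9% identical to each other. A stretch of 90 coding bases is shown because, among stretches of that length in frame and without gaps, it holds the most positions at which members differ (18). Capitals mark bases that differ from Mup7, and positions are counted from the start codon, running from 31 to 120 in Mup7.

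Mup7: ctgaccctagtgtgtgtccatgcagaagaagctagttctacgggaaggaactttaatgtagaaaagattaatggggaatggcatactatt
Mup1: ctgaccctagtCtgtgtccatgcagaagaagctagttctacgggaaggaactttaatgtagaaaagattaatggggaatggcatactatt
Mup2: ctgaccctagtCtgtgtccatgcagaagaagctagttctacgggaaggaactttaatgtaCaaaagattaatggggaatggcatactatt
Mup17: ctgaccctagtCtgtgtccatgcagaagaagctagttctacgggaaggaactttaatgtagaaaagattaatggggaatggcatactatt
Mup20: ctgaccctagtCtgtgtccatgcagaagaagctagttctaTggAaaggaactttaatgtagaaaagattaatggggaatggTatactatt
Mup3: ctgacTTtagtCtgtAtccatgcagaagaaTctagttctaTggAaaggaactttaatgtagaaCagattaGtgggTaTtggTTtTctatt
Mup21: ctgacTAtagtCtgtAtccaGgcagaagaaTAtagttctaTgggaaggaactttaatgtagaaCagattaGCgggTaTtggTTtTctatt

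Mup10, Mup11 and Mup17 had the same letters as Mup1 in this stretch. Mup2 differed from Mup7 at 2 positions, Mup20 at 4, Mup3 at 14 and Mup21 at 16. Of all runs of 100 bases in a member's transcript, the share found in no other Mup gene's transcripts was 97.1% for Mup3, 95.5% for Mup21 and 61.2% for Mup20. It was 40.6% for Mup17, 16.5% for Mup11, 14.6% for Mup10, 12.9% for Mup7, 12.8% for Mup1 and 2.7% for Mup2. Values of single copies among the last 6 therefore depend on how the authors' program divided shared reads. Their sum is less exposed to that division, although reads can still pass to the Mup genes outside the 9.

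RefSeq promoter windows were at hand for 7 of the 9 members (GRCm38.p6). The stretch below, upstream of the outermost annotated end of each gene, is shown because it aligned in all 7. It is given 5′ to 3′ in the gene's direction, with capitals for bases that differ from Mup11.

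Mup11 (chr4:60662503-60662616, minus strand): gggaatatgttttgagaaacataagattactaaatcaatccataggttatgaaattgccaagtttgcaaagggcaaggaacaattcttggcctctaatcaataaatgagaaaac
Mup7 (chr4:60070477-60070590, minus strand): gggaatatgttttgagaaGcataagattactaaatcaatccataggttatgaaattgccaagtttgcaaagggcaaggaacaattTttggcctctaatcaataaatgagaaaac
Mup17 (chr4:61595963-61596076, minus strand): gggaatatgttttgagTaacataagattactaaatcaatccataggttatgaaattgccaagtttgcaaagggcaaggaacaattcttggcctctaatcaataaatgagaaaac
Mup10 (chr4:60582292-60582405, minus strand): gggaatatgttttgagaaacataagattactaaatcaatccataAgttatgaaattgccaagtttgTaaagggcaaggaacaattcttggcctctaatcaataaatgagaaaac
Mup3 (chr4:62087400-62087512, minus strand): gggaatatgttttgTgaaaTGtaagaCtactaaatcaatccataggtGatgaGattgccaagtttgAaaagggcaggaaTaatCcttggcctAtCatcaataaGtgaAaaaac
Mup21 (chr4:62150918-62151030, minus strand): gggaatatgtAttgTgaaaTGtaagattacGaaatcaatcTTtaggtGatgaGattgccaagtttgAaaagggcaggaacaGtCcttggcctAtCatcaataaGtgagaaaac

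Mup2 had the letters of Mup11 throughout. Mup7 and Mup10 each differed at 2 bases and Mup17 at 1. Mup3 differed at 13 bases and Mup21 at 15, and each lacked 1 base of the Mup11 stretch. Both strands of the 250 bases before each start were searched for TTCNNNGAA, the core of STAT5 sites, which was in 0 of the 7 member windows and in 7.0% of 32851 mouse promoter windows of that length. TGTTCT, an element of glucocorticoid receptor sites, was in 2 of the 7, Mup3 and Mup21, and in 16.1% of all windows. The exact letters TATAAA of the TATA box occurred in 0 of the 7 and in 12.4% of all windows. For GTTAAT, an element of HNF1 sites, these figures were 0 and 6.4%. They were 0 and 9.6% for TTGCNNAA, which the factors of the C/EBP family recognise. The annotated starts of the copies are not aligned with each other, so these windows cover different parts of the same upstream sequence. Those of Mup7 and Mup11 ended before the position at which the windows of Mup2, Mup3, Mup10, Mup17 and Mup21 held tatataag. A search for exact letters thus does not show that a TATA box is absent.

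Libraries held 16240441 to 17264289 expected counts. Htra2 was at 12.3 to 17.3 CPM in the 10 libraries, with no separation of the genotypes; CPM are read counts relative to library size, adjusted by TMM. This level does not check the labels, since S400D changes the protein and not necessarily the amount of RNA. Mup RNA was a large part of the liver transcriptome. All 22 Mup genes together took 3.34%, 8.51% and 3.67% of counts in wild-type males 1, 2 and 3. They took 8.53%, 7.79% and 2.87% in heterozygous males 1, 2 and 3, against 2.1%, 1.32% and 1.88% in the homozygous males and 0.84% in the homozygous female.

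The summed level of the 9 genes was lower in each homozygous male than in any other male. It was 13259, 47238 and 17913 CPM in wild-type males 1, 2 and 3, and 43339, 40106 and 11607 CPM in heterozygous males 1, 2 and 3. The homozygous males were at 9169, 5609 and 7641 CPM, and the homozygous female at 2437 CPM. Wild-type male 2 and heterozygous males 1 and 2 stood at least 2.64-fold above the remaining males of their own genotype. The means were 26137 ± 18422 CPM in wild-type males, 31684 ± 17462 in heterozygous and 7473 ± 1786 in homozygous males (SD, n = 3 each).

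**Figure D1:**
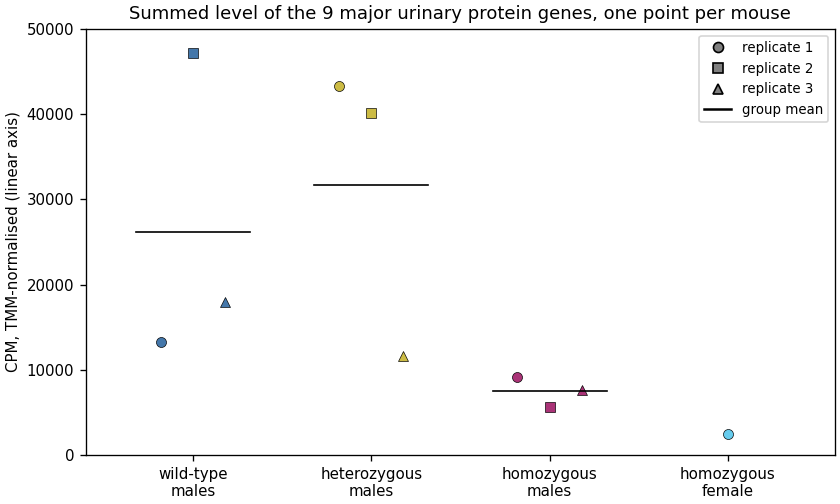
Summed level of the 9 genes in TMM-scaled CPM on a linear axis, with 1 point per mouse, marker shape for the replicate number and a line for the mean of each group of 3 males. The homozygous males sit between 5609 and 9169 CPM, under the lowest of the other males at 11607 CPM, and the other genotypes each split into high and low animals.

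Against wild-type males, the log2 fold change of the sum in homozygous males was -1.80 (SE 0.58, unadjusted p = 0.0123), which did not pass after adjustment over all rows tested (adjusted p = 0.249, edgeR's quasi-likelihood test). Without wild-type male 2 the log2 fold change was -1.06 (adjusted p = 0.586). Against heterozygous males the value was -2.08 (SE 0.59, adjusted p = 0.146). Between heterozygous and wild-type males it was 0.28 (SE 0.57, adjusted p = 0.979), and the 2 groups overlapped widely. Under edgeR 0 of the 9 members passed in any of the 3 contrasts, and 0 of 12427 genes did so (0% called). At an unadjusted p under 0.05 there were 1004 lower and 848 higher genes between homozygous and wild-type males. The 2 contrasts with homozygous males share those 3 animals.

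With no gene past the adjusted threshold, the members are described by direction, unadjusted p and overlap. They were chosen with earlier results of these data known, so the shares of all genes beside the counts are no test of the family. Several copies share reads and all were measured in the same mice, so the members are not separate observations. All 9 had negative fold changes against wild-type males, with a median log2 of -1.45 where the median of all tested genes was 0.00. An unadjusted p under 0.05 was reached by 8 of the 9, beside 8.08% of all genes in that direction. The homozygous males lay under every wild-type male for 5 of the 9, namely Mup2, Mup3, Mup7, Mup17 and Mup21, beside 11.5% of all genes. Against heterozygous males all 9 were again negative with a median of -1.59, 7 had an unadjusted p under 0.05 (8.92% of genes) and 5 did not overlap (11.7%). Between heterozygous and wild-type males 7 were positive and 2 negative, with a median of 0.42, and none had an unadjusted p under 0.05 in either direction (2.52% of genes lower, 1.67% higher). In this contrast the groups overlapped for all 9, while 5.81% of genes were lower and 4.56% higher without overlap.

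DESeq2 called far more genes from the same counts, 308 between homozygous and wild-type males and 545 between homozygous and heterozygous males. Its calls included Mup3, Mup17 and Mup21 in the first contrast and Mup2, Mup3, Mup11, Mup17 and Mup21 in the second. limma-voom called 0 in both.

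**Figure D2:**
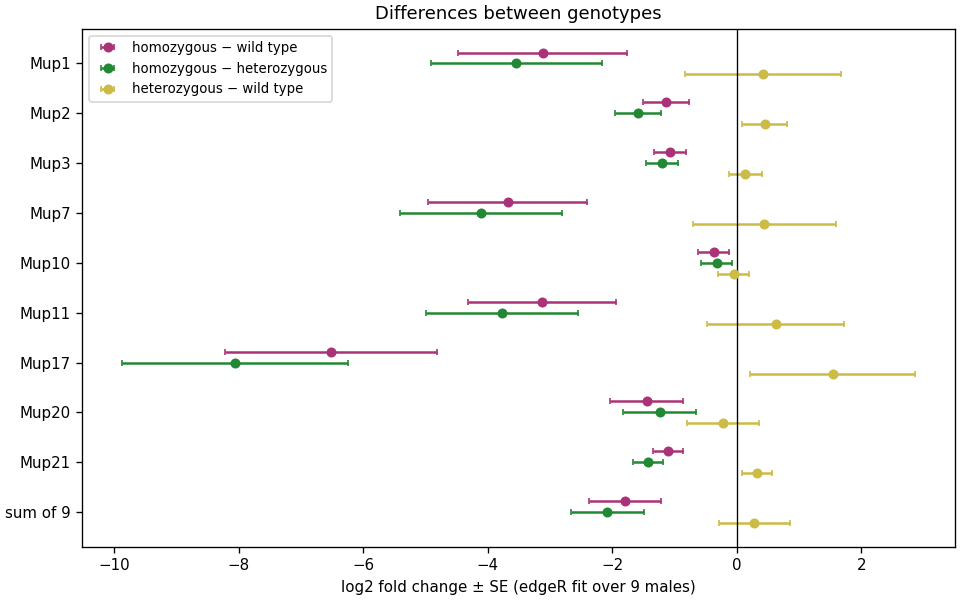
Log2 fold changes with their SE from the edgeR fit over 9 males, for each gene and for the sum of 9, in the 3 contrasts between genotypes. Contrasts with homozygous males lie left of 0 in every row, from -0.37 for Mup10 to -6.52 for Mup17 against wild-type males, while the contrast of heterozygous with wild-type males lies between -0.22 and 1.54.

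Mup7, a copy of the central group of the cluster, had the highest mean FPKM of the 9 in wild-type and heterozygous males, through wild-type male 2 and heterozygous males 1 and 2; FPKM scales a level by transcript length and library total, so genes can be compared. Its levels were 2164, 22685 and 3153 CPM in wild-type males 1, 2 and 3, and 18062, 17385 and 2441 CPM in heterozygous males 1, 2 and 3. The homozygous males were at 1748, 131 and 309 CPM and the female at 1.99 CPM. High animals of the first 2 genotypes stood 7.12-fold to 10.5-fold above low ones, and all 3 homozygous males lay under the lowest of them. The log2 fold change against wild-type males was -3.68 (SE 1.28, adjusted p = 0.26), and -1.86 without wild-type male 2.

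Mup1, Mup11 and Mup17 had their high values in the same 3 animals. Mup11 was at 627, 5036 and 1800.3 CPM in wild-type males, 5771, 5167 and 627 CPM in heterozygous and 694, 48.5 and 106 CPM in homozygous males 1, 2 and 3. Homozygous male 1 thus reached the low wild-type and heterozygous animals, and the groups overlapped (log2 -3.13, SE 1.19, adjusted p = 0.282). Without wild-type male 2 this value was -2.10, and without homozygous male 1 it was -5.01. Mup1 was at 139, 1485 and 158 CPM in wild-type males, 1301, 941 and 134 CPM in heterozygous and 176, 10.7 and 17.6 CPM in homozygous males. Homozygous male 1 was above 2 of the wild-type males here, and the log2 fold change was -3.12 (SE 1.36, adjusted p = 0.328). It was -1.11 without wild-type male 2 and -5.39 without homozygous male 1.

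Mup17 had the steepest difference. It was at 41.7, 557 and 58.1 CPM in wild-type males and 1188, 687 and 35.4 CPM in heterozygous males 1, 2 and 3. The homozygous males were at 6.05, 0.176 and 0.843 CPM, all under the other genotypes. The second of these rests on 3.33 expected counts, at the limit of detection, and the third on 13.6. The fitted log2 fold change of -6.52 (SE 1.71, adjusted p = 0.206) rests on such small numbers and on reads shared with other copies. It was -4.38 without wild-type male 2 and -8.73 without homozygous male 1. The homozygous female, at 4.31 CPM, was above 2 of the 3 homozygous males, which was not so for any other member.

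Mup20 encodes darcin, the male urinary pheromone that attracts females. It was at 2051, 7869.8 and 4855 CPM in wild-type males, 5754, 5537 and 1392 CPM in heterozygous and 2552, 1372 and 1458 CPM in homozygous males 1, 2 and 3. Homozygous male 1 lay above wild-type male 1, and heterozygous male 3 was as low as homozygous males 2 and 3, so the groups overlapped in both contrasts. The log2 fold change was -1.45 (SE 0.59, adjusted p = 0.303) against wild-type and -1.24 (SE 0.59, adjusted p = 0.321) against heterozygous males. The female had 97.1 CPM, with the homozygous male mean 18.5-fold above her.

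Mup3 and Mup21, the 2 members most distinct in sequence and hence the least exposed to shared reads, had, with Mup10, the smallest spread within genotypes. Mup3 was at 4473, 5997 and 5189 CPM in wild-type males, 6783, 6478 and 3926 CPM in heterozygous and 1924, 2409 and 3130.1 CPM in homozygous males. Every homozygous male was under every other male, with log2 fold changes of -1.07 (SE 0.26, adjusted p = 0.187) and -1.20 (SE 0.26, adjusted p = 0.109) against wild-type and heterozygous males. Mup21 was at 296, 388 and 303 CPM in wild-type males, 504, 452 and 278 CPM in heterozygous and 119, 157 and 180.5 CPM in homozygous males. It separated in the same way, with log2 fold changes of -1.11 (SE 0.24, adjusted p = 0.156) and -1.43 (SE 0.24, adjusted p = 0.104). These are the lowest adjusted p-values among the members in each contrast. Between the high and low animals of the wild-type and heterozygous groups, Mup3 differed 1.16-fold to 1.73-fold and Mup21 1.28-fold to 1.81-fold.

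Mup2 was intermediate. It was at 1044, 1664 and 902 CPM in wild-type males, 2129, 1863 and 929 CPM in heterozygous and 375, 519 and 739 CPM in homozygous males, without overlap (log2 -1.14, SE 0.37, adjusted p = 0.248 against wild-type males). Mup10 differed least. Its levels were 2423, 1556 and 1494 CPM in wild-type males, 1849, 1598 and 1846 CPM in heterozygous and 1575, 962 and 1699.7 CPM in homozygous males. Only homozygous male 2 was under all other males, and the log2 fold change was -0.37 (SE 0.25, unadjusted p = 0.18, adjusted p = 0.512). Mup10 was also the only member that was not highest in wild-type male 2 among wild-type males. The female was at 386 CPM for Mup2 and 922 CPM for Mup10, the homozygous male means being 1.41-fold and 1.53-fold above her.

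**Figure D3:**
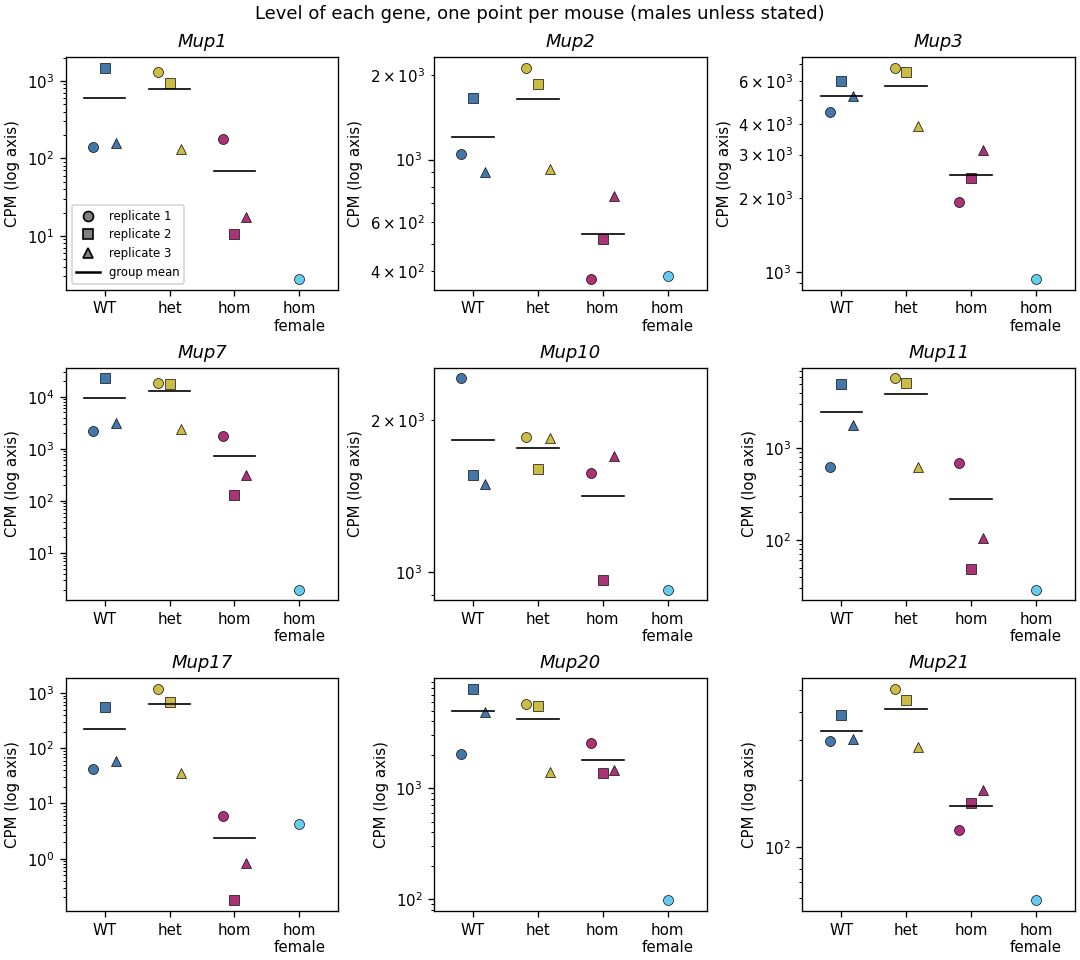
Level of each gene in TMM-scaled CPM on log axes, with 1 point per mouse, marker shape for the replicate number and a line for the mean of each group of 3. Mup1, Mup7, Mup11 and Mup17 span more than 8-fold within the wild-type males, Mup3, Mup10 and Mup21 no more than 1.62-fold, and the female (cyan) is lowest for all but Mup2 and Mup17.

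The order of the members by length-scaled level was set in part by which animals were high. By mean over wild-type males Mup7 (11982 ± 14432 FPKM), Mup3 (7831 ± 707) and Mup20 (7587 ± 4137) led, followed by Mup11 (3617 ± 3166), Mup10 (2904 ± 974), Mup2 (2350.0 ± 672), Mup1 (935 ± 1169), Mup21 (656 ± 67.2) and Mup17 (329 ± 430.3; SD, n = 3). Each neighbour in that order overlapped the next. Mup7 came before the others only in wild-type male 2 (28633 FPKM) among these males. In males 1 and 3 it was at 3059.7 and 4255 FPKM, under Mup3 (7104 and 7874) and Mup20 (3399.9 and 7689). Mup3 also led in heterozygous male 3, with 6418 FPKM against 3549 for Mup7. Mup3 and Mup20 were each deposited mostly as 2 entries of the same transcript, with equal counts in 8 and 9 of 10 libraries (within 0.1 percent), and the entries were summed. If reads were counted at both entries rather than divided, the levels of these 2 genes are too high by about 2 times. Their own fold changes are then not affected, but their shares are too high and those of the other members too low. The sums that include them, and the fold changes of those sums, would shift too. Mup2, Mup7 and Mup21 also had 2 entries of 1 transcript, holding 90.4%, 99.3% and 100.0% of their counts. Those entries were equal in 0 of 10 libraries, with ratios of up to 23.72, 349.44 and 127.57, and were summed too. In homozygous males the leading genes were Mup3 (3893 ± 832 FPKM), Mup20 (2952 ± 1125) and Mup10 (2314 ± 603), and Mup7 was the fifth at 1028 ± 1264. There Mup10 was above Mup2, and Mup1 above Mup17, without overlap of the libraries.

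Mup7 supplied 43.9% of the summed FPKM in wild-type male 2, and 37.7% and 39.3% in heterozygous males 1 and 2. It supplied 14.1%, 15.4% and 18.3% in wild-type males 1 and 3 and heterozygous male 3. Homozygous male 1, with 16.7%, was like these low animals, while homozygous males 2 and 3 had 1.97% and 3.42%. Mup3 supplied 40.7% and 39% in those 2 males. In the female Mup10 and Mup3 made up 36.9% and 35.7%, and Mup7 0.0682%.

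**Figure D4:**
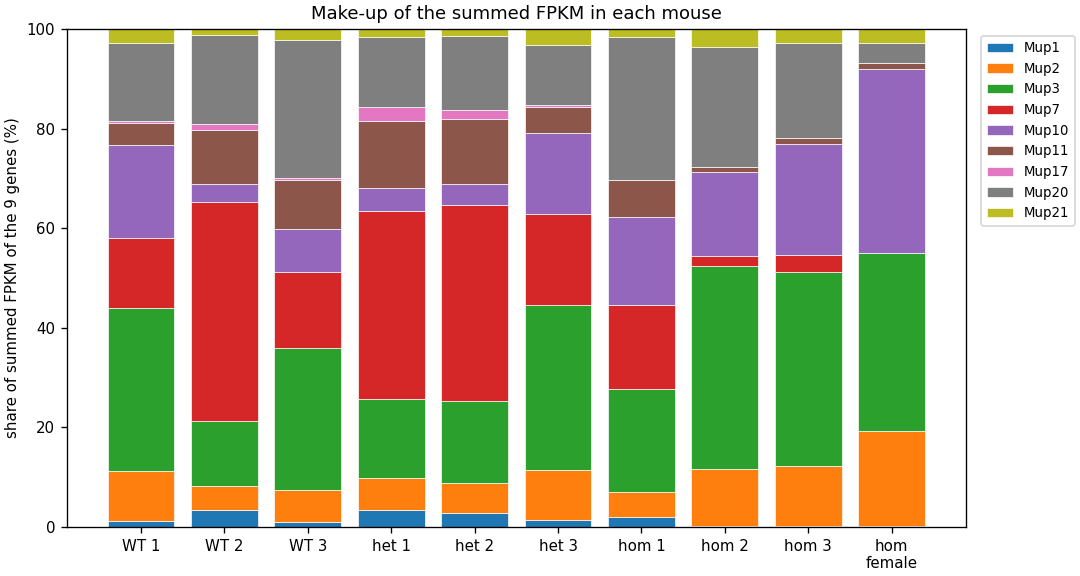
Share of the summed FPKM of the 9 genes that each gene supplies in each mouse, in percent, as stacked bars. Mup7 (red) takes 37.7% to 43.9% in wild-type male 2 and heterozygous males 1 and 2 and 1.97% to 3.42% in homozygous males 2 and 3, where Mup3 (green) takes 39% to 40.7%.

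The other Mup genes of the table were lower in homozygous males too. Of 13, 11 passed the filter on low counts, and all 11 were negative with no overlap against wild-type males (median log2 -3.06, 0 called). Of all genes, 11.5% were lower without overlap. All 11 were measured in the same mice and many share reads with other copies, so they are not separate observations. Mup22 was the most abundant Mup gene of all at 24981 ± 6455 FPKM in wild-type males, but no run of 100 bases of its transcript was its own. It was at 16428, 25416 and 14477 CPM in wild-type males, 21446, 20373 and 13488 CPM in heterozygous and 9741, 6869.7 and 11084 CPM in homozygous males (log2 -1.02, SE 0.30, adjusted p = 0.219). Mup4 and Mup5, known from glands of the head rather than liver, had at most 0.118 and 0.257 CPM in any library. Of 8 markers of lacrimal and salivary glands 6 were in the table, and 5 of these were at 0 in every library. With all 22 Mup genes summed, the log2 fold changes were -1.64, -1.85 and 0.20 in the 3 contrasts (homozygous against wild-type, homozygous against heterozygous, heterozygous against wild-type).

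Genes whose log2 CPM followed the summed level most closely over the 9 males, among 7688 genes averaging 10 CPM or more, were other copies: Mup16 (Pearson r = 0.99), Mup12, Mup14 and Mup17 (each r = 0.97) and Mup18 (r = 0.96). These share reads with the sum, and Mup17 is a part of it. Outside the Mup genes, the closest were Gstp1 (r = 0.96), a glutathione transferase that is higher in male liver, then Cops3 (0.95), Shc1 (0.94), Dcps (0.93) and Cct7 (0.92), which were picked out after their values were seen. Gstp1 was at 1274, 3090.5 and 1979 CPM in wild-type males, 3606, 3609.8 and 959 CPM in heterozygous and 1193, 942 and 1135 CPM in homozygous males. The same 3 animals were high as for the Mup sum.

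Male-biased liver genes outside the Mup family were read as a list of 23, of which 22 passed the filter. This list and the others below were also chosen with earlier results known, so shares of all genes beside their counts are no test. Against wild-type males 20 of 22 were negative in homozygous males, with a median log2 of -1.21; 0 were called, 12 were lower at an unadjusted p under 0.05 (8.08% of genes) and 13 without overlap (11.5%). Selenbp2, a selenium-binding protein, was at 296, 1481 and 158 CPM in wild-type males, 1459, 759 and 293 CPM in heterozygous and 15.8, 57.8 and 31.9 CPM in homozygous males (log2 -4.19, SE 0.96, adjusted p = 0.167). Cyp4a12b, a fatty acid hydroxylase, was at 84.4 to 87.5 CPM in wild-type males and 16.9 to 32 CPM in homozygous males (log2 -1.96, SE 0.35, adjusted p = 0.147). Hsd3b5, a steroid dehydrogenase of male liver, was at 94.5 to 300.0 CPM in wild-type males, 53.9 and 43.4 CPM in homozygous males 2 and 3, and 0.742 CPM in homozygous male 1. The genes of this list lie outside the Mup family, and reads that they may share with other genes were not examined. Elovl3, a fatty acid elongase, went the other way (log2 0.63, SE 1.11).

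The sum of that list was 8123, 22882 and 9401 CPM in wild-type males, 27662, 23078 and 7250.2 CPM in heterozygous and 4989, 6741 and 8061 CPM in homozygous males 1, 2 and 3. It was high in the same 3 animals as the Mup sum, and homozygous male 3 overlapped the low animals. Serpina1e, a protease inhibitor secreted by the liver, was a large part of it with 13152, 16398 and 13891 CPM in those 3 animals and 2041 to 3751 CPM in the other 6 males. The female-biased list was lowest in the 3 animals with high Mup sums. Its sum was 1519.6, 544 and 1299 CPM in wild-type males and 461, 500.0 and 1321 CPM in heterozygous males 1, 2 and 3. In homozygous males it was 3993, 2004 and 3068 CPM, and in the female 7225 CPM. Of its 19 tested genes 16 were positive against wild-type males (median log2 0.82), 0 were called and 4 had an unadjusted p under 0.05, beside 6.82% of all genes, while 5 did not overlap (9.26%). Against heterozygous males 9 of the 19 were higher at an unadjusted p under 0.05 (8.25% of genes) and 8 did not overlap (10.7%).

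**Figure D5:**
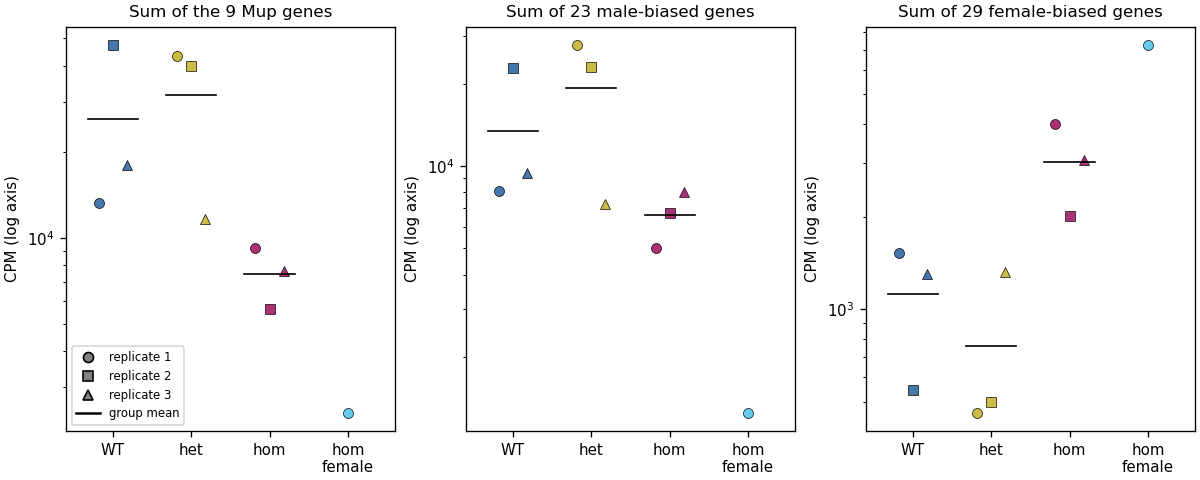
Summed CPM on log axes of the 9 Mup genes, of 23 male-biased genes and of 29 female-biased genes, with 1 point per mouse and a line for the mean of each group of 3 males. Wild-type male 2 and heterozygous males 1 and 2 are high in the first 2 panels and low in the last, where the homozygous males (2004 to 3993 CPM) lie between the other males and the female (7225 CPM).

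Genes of growth hormone signalling had no common direction. Of 19 tested, 7 were negative and 12 positive between homozygous and wild-type males (median log2 0.06, 0 called, 2 lower and 1 higher at an unadjusted p under 0.05, beside 8.08% and 6.82% of all genes). Igf1, the hormone that liver makes in response to growth hormone, was at 426, 570.0 and 477 CPM in wild-type males, 535, 378 and 471 CPM in heterozygous and 286, 319 and 254 CPM in homozygous males. Its homozygous values lay under all others (log2 -0.78, SE 0.17, adjusted p = 0.156), as did those of Igfals, which carries IGF1 in blood (log2 -0.80, SE 0.22, adjusted p = 0.207). Ghr, the growth hormone receptor, was at 547, 497 and 358 CPM in wild-type males and 158, 452 and 420.0 CPM in homozygous males (log2 -0.44, SE 0.34). Stat5b, which carries the signal in hepatocytes, had a log2 of 0.45 (SE 0.23, adjusted p = 0.393) with every homozygous male above every wild-type male, and Stat5a a log2 of 0.05 (SE 0.26).

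Single animals, and for some genes the heterozygous group, stood out among STAT5 targets and the repressors of sex-biased genes. Cux2, a repressor found in female liver, was at 84.6 CPM in homozygous male 1 and 70.1 CPM in the female, against 1.76 and 0.482 CPM in homozygous males 2 and 3 and at most 11.8 CPM in the other males. Socs2, an inhibitor of the pathway, was at 56.7 CPM in homozygous male 1 and 5.19 to 29.9 CPM in the other males. That male had more Mup1, Mup7, Mup11, Mup17 and Mup20 than the other homozygous males, and less Mup2, Mup3 and Mup21. Its Mup10 lay between theirs, and its summed Mup level was above theirs (9169 against 5609 and 7641 CPM). Bcl6, a repressor found in male liver, was at 26.4 to 40.2 CPM in wild-type males, 50 to 123 CPM in heterozygous and 19.9 to 35.2 CPM in homozygous males. Cish, a STAT5 target, was at 13.5 to 35.8 CPM in wild-type males, 1.89 to 9.77 CPM in heterozygous and 9.46 to 14.1 CPM in homozygous males. Heterozygous and wild-type males did not overlap for either gene (log2 1.36, SE 0.33 for Bcl6 and -2.27, SE 0.54 for Cish, each adjusted p = 0.972). Other regulators of Mup transcription were evenly divided between homozygous and wild-type males, 8 negative and 10 positive of 18 (median log2 0.04, 0 called). At an unadjusted p under 0.05, 1 was lower and 2 were higher, beside 8.08% and 6.82% of all genes. Nr1i3, the nuclear receptor CAR, was at 98.1 to 159.8 CPM in wild-type and 196 to 254 CPM in homozygous males (log2 0.68, SE 0.19, adjusted p = 0.209). Cebpa, a hepatocyte transcription factor, was at 447 to 484 and 355 to 369 CPM (log2 -0.37, SE 0.15, adjusted p = 0.294). Hnf4a (0.07), Zhx2 (0.08) and Nr3c1, the glucocorticoid receptor (-0.09), had log2 fold changes within 1 SE of 0.

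Other secreted products of hepatocytes did not share the direction. Of 30 genes, 16 were negative and 14 positive between homozygous and wild-type males, with a median log2 of -0.02 (0 called). Against heterozygous males 8 were negative and 22 positive (median log2 0.14, 0 called). Of these, 7 were higher at an unadjusted p under 0.05 (8.25% of genes) and 10 without overlap (10.7%). Between heterozygous and wild-type males 26 were negative and 4 positive (median log2 -0.21). Alb, serum albumin, was at 70042 to 79962 CPM in wild-type males and 84679 to 106052 CPM in homozygous males (log2 0.36, SE 0.25, adjusted p = 0.516). Other lipocalins and related carriers leaned lower against wild-type males, in heterozygous as well as homozygous males. Of 10 tested genes 8 were negative between homozygous and wild-type males, with a median log2 of -0.70 and 0 called. At an unadjusted p under 0.05, 1 was lower (8.08% of genes), while 2 were lower and 1 higher without overlap (11.5% and 9.26% of genes). Between heterozygous and wild-type males 8 were negative too (median log2 -0.25, 4 lower at an unadjusted p under 0.05, beside 2.52% of genes). Against heterozygous males, homozygous males had 5 negative and 5 positive genes (median log2 0.05). Orm1, an acute phase protein, was at 469, 805 and 1266 CPM in wild-type and 435, 419 and 471 CPM in homozygous males 1, 2 and 3 (log2 -0.94, SE 0.29, adjusted p = 0.238). Ptgds, a prostaglandin synthase of this fold, was at no more than 2.58 CPM in any male (log2 -1.40, SE 0.63, adjusted p = 0.339). Rbp4, which carries retinol, was at 2832 to 2966 CPM in wild-type and 2891 to 3557 CPM in homozygous males. Hepatocyte markers, 12 genes, had a median log2 of 0.06 between homozygous and wild-type males. The median was 0.34 between homozygous and heterozygous males and -0.31 between heterozygous and wild-type males.

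Clock genes and markers of other cells are given because some groups or single animals stood apart in them, and 0 genes of these lists were called. Of 19 clock genes, 9 were lower and 5 higher in homozygous than wild-type males at an unadjusted p under 0.05 (8.08% and 6.82% of genes). Without overlap there were also 9 lower and 5 higher (11.5% and 9.26%). Against heterozygous males, 2 were lower and 0 higher without overlap (11.7% and 10.7%). Arntl, a core clock activator, was at 2.45 to 4.25 CPM in wild-type males and 17.4 to 38.1 CPM in homozygous males, and Dbp, a clock output, at 128 to 158 and 1.26 to 12.9 CPM. Heterozygous male 2 had Arntl at 31.5 CPM and Dbp at 6.02 CPM, within the homozygous range, and a Mup sum of 40106 CPM, outside it. Erythroid markers, 6 genes, summed to 1981 CPM in wild-type male 1 and 1733 CPM in heterozygous male 3, 2 of the animals with low Mup7, and to 161 to 503 CPM in the other males, the low wild-type male 3 (228 CPM) and the homozygous males (262 to 294 CPM) included. Macrophage markers, 12 genes, summed to 604, 249 and 192 CPM in wild-type males, 245, 475 and 567 CPM in heterozygous and 514, 558 and 554 CPM in homozygous males, and all 12 were positive between homozygous and wild-type males (median log2 0.63, 0 called). Endothelial markers, 10 genes, summed to 98.9 to 259.9 CPM in wild-type males and 234 to 243 CPM in homozygous males. All 10 were positive between these groups (median log2 0.55, 0 called), 1 of them without overlap (9.26% of genes). Against heterozygous males all 10 were positive too (median log2 0.36), 5 of them without overlap (10.7% of genes). The part of collection time, blood or other cells in the Mup levels was not tested.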

How the data were processed

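Liver mRNA of 10 mice was selected on oligo(dT) beads and sequenced, per the labels' protocols. The authors deposited, for 77712 transcripts, expected counts (estimated reads per transcript, not normalised), FPKM values scaled by the authors to transcript length and library total, and TPM values that the authors scaled to a fixed sum. HISAT, Bowtie2 and the build GRCm38.p6 are named in the submitters' processing notes. The counting program and the versions were not given in the sources used here. Transcripts were summed to 19271 genes, of which 19214 matched a RefSeq gene, and summed counts were rounded.

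The 9 males were fitted together with edgeR 4.0.16 (R 4.3.3): quasi-likelihood test, TMM factors, edgeR's filter by group, genotype as the only term, Benjamini-Hochberg adjustment over 12427 genes, threshold 0.05. The sum of the 9 genes was fitted as 1 row in their place. The fit was tested on simulated data. Alternatives were DESeq2 1.42.0, limma 3.58.1 on FPKM with pseudocounts of 1 and 0.1, limma-voom, other scalings, filters and samples. The limit of detection was set at 3 reads, and intervals of counting error do not cover PCR duplicates. Sequences come from RefSeq (GRCm38.p6) and GENCODE M21, aligned with edlib 1.3.9.post1.

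The members and gene lists were chosen with earlier results of these data known. Named genes were all Mup genes, Htra2, a fixed set of regulators and sex-biased genes, the 5 genes most correlated with the sum, and list members with the smallest p; Serpina1e and the non-Mup genes most like the sum were added after their values were seen. A gene that the rule named is not reported here.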

Additional observations from a re-analysis of the deposited data

How the results depend on the processing

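Over 33 results and 762 alternative values, 730 kept their direction and side of the threshold. The 730 include Mup7 under DESeq2, which gave it no p-value, so only its direction was compared there. With DESeq2, 308, 7 and 545 genes were called (homozygous against wild-type, heterozygous against wild-type, homozygous against heterozygous males), and the Mup sum passed between homozygous and heterozygous males (log2 -2.09, adjusted p = 0.029). limma on log2(FPKM + 1) without a filter called 1 gene in each contrast with homozygous males. For heterozygous against wild-type males Mup10 turned positive, to 0.02 with library size alone and 0.06 under the 3 FPKM settings. The cause was not tested. Deviations of same-numbered animals from their group means had correlations from -0.44 to 0.205, and those of differently numbered animals from -0.372 to 0.45. With 3 animals per group, these can neither show nor exclude that the numbers pair animals. With the replicate number as a block the sum was at -1.62 (adjusted p = 0.36), 0.25 and -1.88 (adjusted p = 0.248), and 0 genes were called.

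Leaving out each animal in turn gave 0 to 18 genes called between homozygous and wild-type males (18 without wild-type male 1, 2 without homozygous male 2), 0 to 6 between homozygous and heterozygous males (6 without homozygous male 2) and 0 to 0 between heterozygous and wild-type males. The sum ranged from -2.12 to -1.06, from -2.48 to -1.79 and from -0.04 to 1.02 in these contrasts, so the direction between heterozygous and wild-type males is not fixed. In that last contrast Mup1 ranged from -0.14 to 2.42, Mup7 from -0.03 to 2.25, Mup10 from -0.16 to 0.21, Mup20 from -0.59 to 0.29 and Mup3 from 0.00 to 0.36. No member changed sign in the contrasts with homozygous males. Depth limits only Mup17 and Mup genes with a few reads.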
